A study of Mus musculus with 6 samples.

Results

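The genes described here encode the subunits of both mTOR complexes and the TSC-Rheb switch that controls one of them. They are Mtor, Rptor, Rictor, Mlst8, Akt1s1, Deptor, Mapkap1, Tsc1, Tsc2 and Rheb. They were chosen by gene symbol, with earlier results of these data known. Each of the 10 symbols matched 1 row among the 34745 genes of the count table. All 10 passed the filter on low counts that left 12537 genes for testing.

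RNAseq was performed on monocytic myeloid-derived suppressor cells (M-MDSCs), immature myeloid cells that restrain T cells, from C57BL/6 bone marrow. WT M-MDSCs came from WT mice, and M-MDSCs labelled mTOR knock-out came from Lyz-mTOR mice, with 3 libraries in each group. Lyz-mTOR mice carry floxed mTOR alleles and a Cre recombinase under the lysozyme promoter, which is active in myeloid cells, so that other cells can still make mTOR. The WT mice are described as purchased C57BL/6 animals, not as Cre-negative or floxed littermates, so Cre and the floxed alleles are given for the mTOR-/- group alone. The study's methods describe cultures of bone marrow with GM-CSF and IL-6, the labels name bone marrow and freshly sorted cells, and the study's discussion calls the sequenced cells induced, its word for cells from such cultures. The ages of the mice, and whether each library came from 1 mouse, are not given in the sources used here.

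The kinase mTOR works in a pair of complexes. In mTORC1 it is joined by Raptor, encoded by Rptor, and in mTORC2 by Rictor and by SIN1, encoded by Mapkap1. Mlst8 belongs to both complexes, Deptor binds and inhibits mTOR in both, and PRAS40, encoded by Akt1s1, inhibits mTORC1. Rheb, a small GTPase of lysosomal membranes, activates mTORC1 when bound to GTP, and the TSC1-TSC2 complex switches Rheb off by stimulating its GTP hydrolysis. In myeloid cells mTORC1 sets growth and glycolysis and holds autophagy back when nutrients are plentiful.

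None of the 10 genes differed between mTOR-/- and WT M-MDSCs at an adjusted p under 0.05 (edgeR's quasi-likelihood test, Benjamini-Hochberg over all 12537 tested genes), and none was a DEG, which also required a fold change of at least 2. Deptor had the largest difference, 1.72-fold higher in the mTOR-/- libraries, and it missed the threshold. Mtor itself, the gene targeted by the deletion, was not lower. Among all tested genes 507 passed the adjusted p alone, which is 4.04%, and 212 were DEGs, which is 1.69%. At an unadjusted p under 0.05, 1 of the 10 genes passed, Deptor, against 21.2% of all tested genes. DESeq2's Wald test and edgeR's exact test each called 1 of the 10, again Deptor, where they called 9.12% and 8.05% of all tested genes.

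Total counts were 12317507 to 12903191 in the mTOR-/- libraries and 14066578 to 14768126 in the WT libraries. mTOR-/- replicate 3 stood apart: it had 13889 genes with a count, against 14709 to 15120 in the other libraries, and it correlated at 0.955 and 0.952 with its own group where mTOR-/- replicates 1 and 2 correlated at 0.973 (Pearson's r of log2 CPM across genes). mTOR-/- replicates 1 and 2 correlated with the WT libraries at 0.9569 to 0.9665, above their values with mTOR-/- replicate 3. The log2 fold changes of the 10 genes are also given without mTOR-/- replicate 3. The CD11b gene Itgam had 8376 to 13914 counts and Ly6c2 had 891 to 3169 counts, so both genes of the M-MDSC gate were present in every library. Ly6c2 fell by 1.00 on the log2 scale in the mTOR-/- libraries (adjusted p = 0.0426, edgeR's quasi-likelihood test). Ly6g, which the gate excludes, was at 12 to 71 counts in the WT libraries and 139 to 198 counts in the mTOR-/- libraries. It was called higher, with a log2 fold change of 2.26 (adjusted p = 0.0365, edgeR's quasi-likelihood test). Markers of other cells moved with the groups as well. The summed CPM of 8 mast cell and basophil genes was 553 to 629 in the mTOR-/- libraries and 1560 to 1650 in the WT libraries, with 5 called lower. Its largest part in the WT libraries was Cpa3, with means of 135 CPM with mTOR-/- and 694 CPM with WT. Ms4a2, Prss34 and Fcer1a were not called, and the log2 fold change of Fcer1a was above 0, at 0.45. The sum of 8 dendritic cell genes was 201 to 273 against 72.1 to 161, with 1 called higher, and Siglech was at 0 counts in all libraries. Most of this sum was Itgax, which was not called, at 197, 128 and 192 CPM against 52.0, 117 and 103 CPM. Ccr7 was the gene called. Of the 6 dendritic cell genes tested, 4 had a log2 fold change above 0 and 2, Flt3 and Clec9a, below 0. The sums of 10 monocytic genes (2150 to 2460 against 2300 to 2530) and of 10 granulocytic genes (888 to 1050 against 857 to 1140) overlapped between the groups. In the monocytic list 2 genes were called higher and 1 lower, and in the granulocytic list 2 and 2. The 6 erythroid and megakaryocytic genes summed to 135 to 171 CPM against 191 to 233, and the 6 stromal genes to 153 to 197 against 239 to 261, with 1 gene called lower in each list and Cxcl12 at 0. The stromal sum was mainly Pecam1, the gene called, at 132, 163 and 116 CPM against 228, 208 and 210 CPM. Pdgfrb had a log2 fold change of -0.05, and Col1a1, Col1a2 and Cdh5 were at most 3.28 CPM in any library. The sum of 9 lymphoid genes lay below 5 CPM throughout, at 1.47 to 4.28 against 1.49 to 2.32, with Cd3e, Cd4, Cd8a and Ncr1 at 0. The part of these other cells in the values below was not tested. In bulk RNA, fewer cells of a type and less RNA per cell cannot be told apart.

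Mtor (ENSMUSG00000028991) is a chromosome 4 gene (148448611 to 148557683, forward strand, mm10 or GRCm38), and its transcript with the longest coding part has 58 exons. Its promoter sequence is shown because this is the gene the mice were made to lose. The RefSeq sequence of the 250 bases before the RefSeq start (GRCm38.p6, chr4:148448332-148448581, forward strand) reads as follows, with the CCAAT motif and its reverse complement ATTGG in capitals.
Mtor: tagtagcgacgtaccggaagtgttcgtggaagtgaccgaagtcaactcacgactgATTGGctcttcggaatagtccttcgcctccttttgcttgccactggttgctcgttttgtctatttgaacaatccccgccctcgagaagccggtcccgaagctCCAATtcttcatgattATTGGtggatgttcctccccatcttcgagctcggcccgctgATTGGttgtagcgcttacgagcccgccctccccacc
The RefSeq start lies a little before the start in the deposited table. The stretch holds 4 such matches, which do not overlap, and 19 CpG dinucleotides, with a GC content of 54.4%. Of 32851 RefSeq promoter stretches of the same length, 33.8% hold at least 1 match on either strand, and their median GC content is 52.4%. A match is a run of letters and not a measured binding site. RefSeq promoter entries were found for 9 of the 10 genes, all but Deptor.

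Mtor had 883, 983 and 908 counts in mTOR-/- replicates 1, 2 and 3 and 980, 875 and 929 counts in the WT replicates. After TMM normalization these were 72.0, 75.9 and 69.5 CPM across mTOR-/- replicates 1 to 3, against 69.7, 59.8 and 66.2 CPM across the WT replicates, where CPM are counts divided by the TMM-scaled library total. The groups overlapped by a narrow margin, since WT replicate 1 lay just above mTOR-/- replicate 3. The log2 fold change of mTOR-/- over WT was 0.15 (standard error, SE, 0.11, edgeR quasi-likelihood, adjusted p = 0.442), with a 95% interval of 0.943-fold to 1.31-fold. A fall of Mtor RNA by more than that lower bound was thus outside the interval for the gene as a whole. The exons removed by Cre are not given in the sources used here, and the counts are not split by exon, so the counts do not test the loss of those exons or of the protein. The study states that it verified mTOR depletion in MDSCs in a separate experiment, which is not analysed here. The labels could not be checked on the Mtor counts, and mTOR-/- stands below for the libraries labelled so. Lyz2, the lysozyme gene of myeloid cells, is named here because it is taken as the locus that drives Cre. The study genotyped the Cre line with primers for wild-type and mutant Lyz alleles. The Cre allele may thus alter this locus in the mTOR-/- group alone. Lyz2 was at 1020 ± 153 CPM with mTOR-/- (SD, n = 3), compared with 3280 ± 840 CPM with WT (SD, n = 3), and it fell by 1.68 on the log2 scale (adjusted p = 0.00255, edgeR). An effect of the Cre allele on Lyz2 and a change that follows mTOR loss cannot be told apart in these groups.

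**Figure D1:**
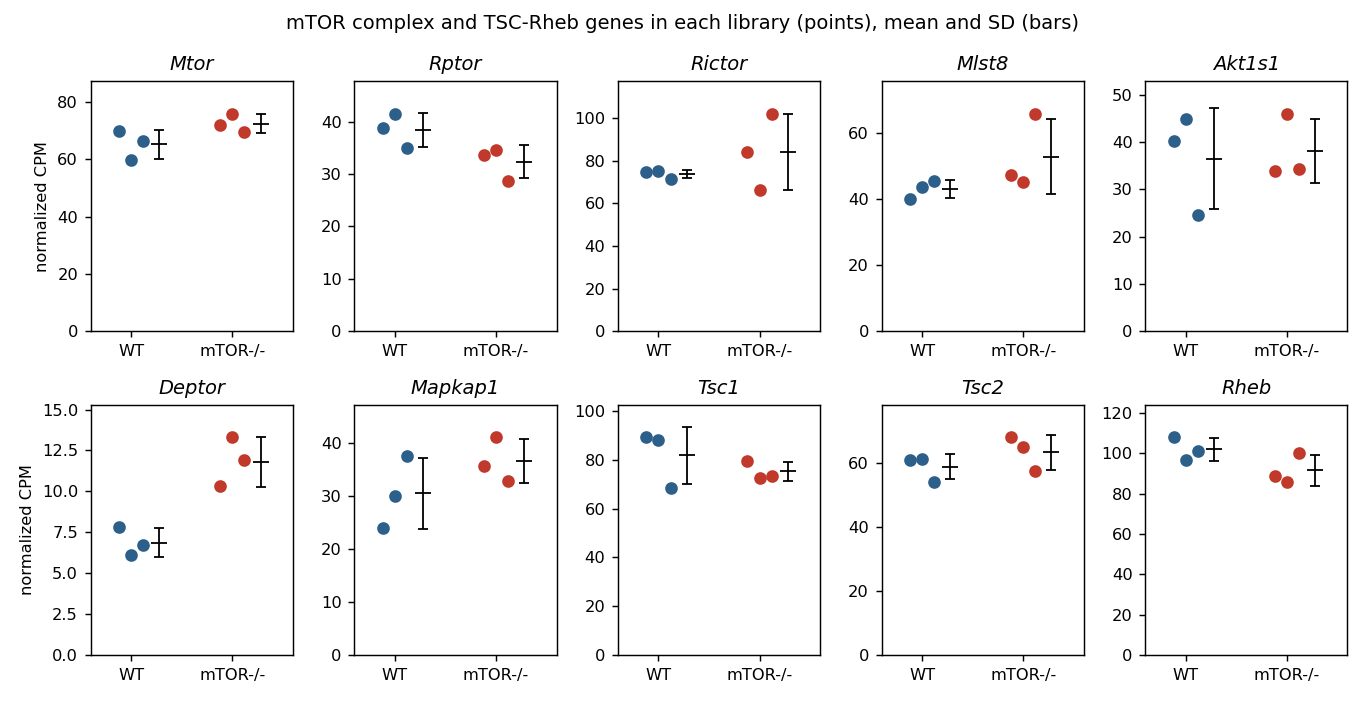
Normalized CPM (vertical axes, each from 0) of the 10 genes in the 3 WT libraries (blue) and the 3 libraries labelled mTOR-/- (red). Points are libraries in the order of replicates 1 to 3, and bars give the mean and SD of each group. Deptor lies higher in all 3 mTOR-/- libraries and Rptor lower in all 3, while the other genes overlap between the groups.

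Each complex is defined by its scaffold. Rptor (ENSMUSG00000025583, chromosome 11, 119602905 to 119899576, forward strand), the scaffold that brings substrates to mTORC1, was at 33.6, 34.6 and 28.7 CPM across mTOR-/- replicates 1 to 3, against 38.7, 41.5 and 35.0 CPM across the WT replicates. Every mTOR-/- library was below every WT library, by a margin of less than 1 CPM between the nearest pair. The log2 fold change was -0.25 (SE 0.14, edgeR quasi-likelihood, adjusted p = 0.325), with an interval of 0.680-fold to 1.04-fold. Rptor and Deptor were the only ones of the 10 genes whose groups did not overlap, 1 in each direction, where 28.4% of all tested genes did not overlap.

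Rictor (ENSMUSG00000050310, chromosome 15, 6708381 to 6800398, forward strand), the scaffold of mTORC2, was at 83.8, 66.2 and 102 CPM across mTOR-/- replicates 1 to 3, against 74.8, 74.9 and 71.4 CPM across the WT replicates. The WT values lay inside the range of the mTOR-/- values. Its log2 fold change was 0.19 (SE 0.15, edgeR quasi-likelihood, adjusted p = 0.504), and it was 0.02 without mTOR-/- replicate 3. Mapkap1 (ENSMUSG00000038696, chromosome 2, 34406771 to 34624950, forward strand), whose product SIN1 recruits AKT to mTORC2, was at 35.7, 41.1 and 32.9 CPM across mTOR-/- replicates 1 to 3, against 24.0, 30.1 and 37.5 CPM across the WT replicates. Its groups overlapped through WT replicate 3, and the log2 fold change was 0.26 (SE 0.18, edgeR quasi-likelihood, adjusted p = 0.44).

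Mlst8 (ENSMUSG00000024142, chromosome 17, 24473550 to 24479078, reverse strand) encodes the small WD-repeat subunit that binds the mTOR kinase domain in both complexes. It was at 47.4, 45.3 and 66.0 CPM across mTOR-/- replicates 1 to 3, against 40.2, 43.9 and 45.7 CPM across the WT replicates. The value of mTOR-/- replicate 3 stood above the other 5 libraries, which lay between 40.2 and 47.4 CPM. The fitted log2 fold change was 0.29 (SE 0.16, edgeR quasi-likelihood, adjusted p = 0.327) and 0.09 without that library. Annotated exons of Mlst8 overlap exons of Bricd5, on the opposite strand, over 997 bases, 22.5% of the exon bases of Mlst8. The strand setting of the counting is not given in the sources used here, so reads of an opposite-strand gene may be shared. Bricd5 had 1 to 14 counts per library and fell below the filter.

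The inhibitory subunits had the largest and the smallest estimate of the 10 genes. Deptor (ENSMUSG00000022419, chromosome 15, 55112317 to 55259271, forward strand) had 126, 172 and 155 counts across the mTOR-/- replicates, against 110, 89 and 94 across the WT replicates. These were 10.3, 13.3 and 11.9 CPM against 7.82, 6.08 and 6.69 CPM. Each mTOR-/- library was above each WT library, although the mTOR-/- libraries held fewer counts in total. The mean was 11.8 ± 1.51 CPM (SD, n = 3) against 6.86 ± 0.882 CPM (SD, n = 3). Its log2 difference from WT was 0.78 (SE 0.21, edgeR quasi-likelihood, adjusted p = 0.0776), with a 95% interval of 1.23-fold to 2.40-fold. The fit thus left Deptor short of the threshold, while DESeq2's Wald test gave an adjusted p of 0.0321 and edgeR's exact test one of 0.0224. Over all 13 alternative fits the log2 fold change lay between 0.68 and 0.88 and the adjusted p between 0.0224 and 0.253. Of all tested genes, 10.1% had a larger absolute log2 fold change than Deptor. Deptor was also the lowest of the 10 genes in CPM, above 26% of the tested genes.

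Akt1s1 (ENSMUSG00000011096, chromosome 7, 44848991 to 44855421, forward strand), which encodes the AKT substrate PRAS40, was at 33.9, 46.0 and 34.3 CPM across mTOR-/- replicates 1 to 3, against 40.2, 44.9 and 24.5 CPM across the WT replicates. The libraries of both groups were interleaved. For mTOR-/- over WT, the log2 fold change was 0.06 (SE 0.23, edgeR quasi-likelihood, adjusted p = 0.908), with an interval of 0.733-fold to 1.48-fold. When 1 library was left out in turn, the estimate took either sign, from -0.16 without WT replicate 3 to 0.23 without WT replicate 2. Exons of Akt1s1 and Tbc1d17 on the opposite strand overlap over 89 bases, 2.90% of the exon bases of Akt1s1, and Tbc1d17 had 601 to 726 counts per library.

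The genes of the TSC-Rheb switch did not pass the test either. Tsc1 (ENSMUSG00000026812, chromosome 2, 28641228 to 28691167, forward strand), which stabilizes TSC2, was at 79.7, 72.6 and 73.5 CPM across mTOR-/- replicates 1 to 3, against 89.3, 88.1 and 68.5 CPM across the WT replicates. WT replicate 3 lay below all the mTOR-/- libraries, and the other WT replicates above all of them. Tsc2 (ENSMUSG00000002496, chromosome 17, 24595937 to 24632629, reverse strand), which carries the GTPase-activating domain, was at 67.9, 64.8 and 57.3 CPM across mTOR-/- replicates 1 to 3, against 60.7, 61.1 and 54.1 CPM across the WT replicates. The log2 fold changes were -0.12 for Tsc1 and 0.11 for Tsc2 (standard errors 0.12 and 0.11, adjusted p = 0.608 and 0.617, edgeR's quasi-likelihood test). Exons of Tsc2 overlap those of Pkd1 on the opposite strand over 693 bases, 7.20% of the exon bases of Tsc2. Pkd1 was at 69.6 ± 6.89 CPM with mTOR-/- (SD, n = 3), compared with 53.0 ± 10.1 CPM with WT (SD, n = 3), with a log2 fold change of 0.39 (adjusted p = 0.183, edgeR).

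Rheb (ENSMUSG00000028945, chromosome 5, 24802823 to 24842624, reverse strand) had the highest CPM of the 10 genes in the WT libraries. It was at 88.8, 85.7 and 100 CPM across mTOR-/- replicates 1 to 3, against 108, 96.6 and 101 CPM across the WT replicates. mTOR-/- replicate 3 reached into the WT range, and the other mTOR-/- replicates lay below it. On the log2 scale the difference was -0.15 (SE 0.10, edgeR quasi-likelihood, adjusted p = 0.427), with an interval of 0.766-fold to 1.06-fold.

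**Figure D2:**
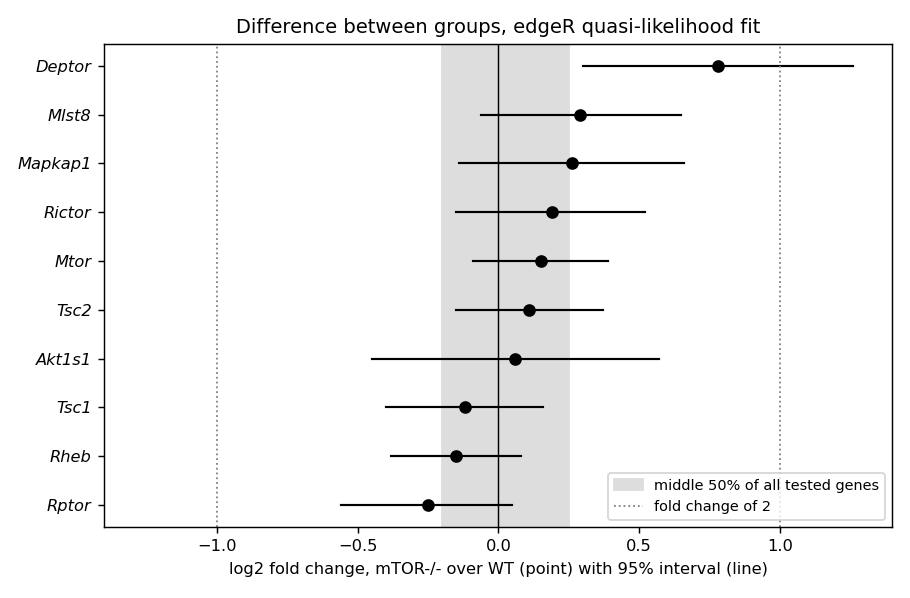
Log2 fold change of mTOR-/- over WT (horizontal axis, points) with 95% intervals (lines) for the 10 genes, from edgeR's quasi-likelihood fit. The grey band holds the middle 50% of all tested genes and the dotted lines mark a fold change of 2. The interval of Deptor, 0.30 to 1.26, lies above 0, and those of the other 9 genes include 0.

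Across the 10 genes, 7 had a log2 fold change above 0 and 3, Rptor, Rheb and Tsc1, below 0. The median was 0.131, against 0.005 over all tested genes. The median absolute log2 fold change was 0.171, against 0.224 over all tested genes. The middle 50% of all tested genes lay between -0.20 and 0.25. For the 9 genes other than Deptor, the 95% intervals lay within 0.680-fold to 1.58-fold. Without mTOR-/- replicate 3 the log2 fold changes were 0.18 for Mtor, -0.18 for Rptor, 0.02 for Rictor, 0.09 for Mlst8, 0.12 for Akt1s1, 0.77 for Deptor, 0.32 for Mapkap1, -0.11 for Tsc1, 0.17 for Tsc2 and -0.23 for Rheb. None of the 10 genes passed the threshold in that fit, and each kept its direction.

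**Figure D3:**
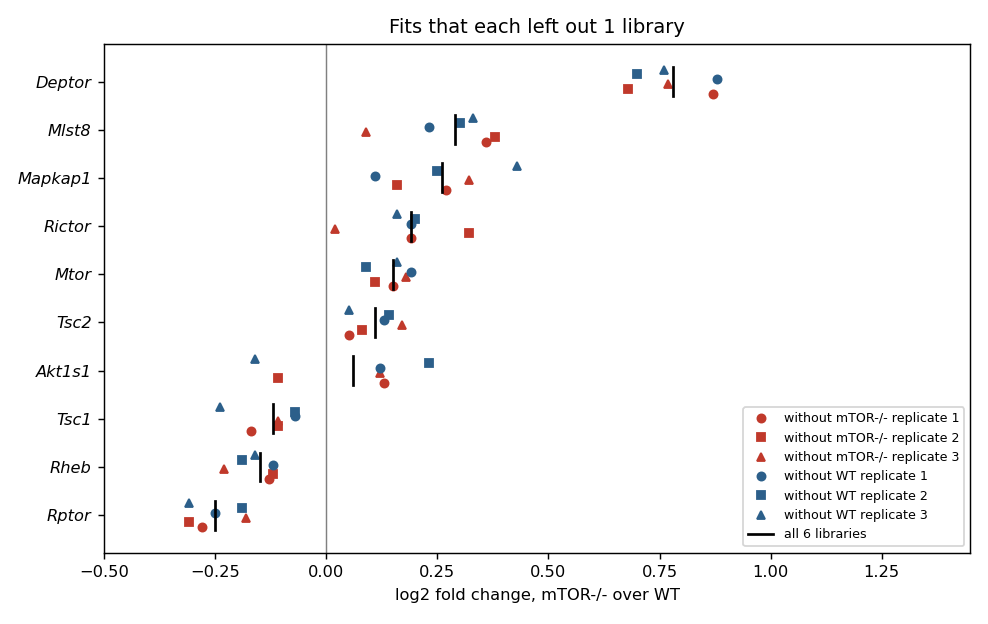
Log2 fold change of mTOR-/- over WT (horizontal axis) for each gene in fits that each left out 1 library (symbols, red where an mTOR-/- library was left out and blue where a WT library was) and in the fit of all 6 libraries (black bars). Akt1s1 crosses 0, and Mlst8 and Rictor move close to 0 without mTOR-/- replicate 3.

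The genes differed in how much they varied within a group. Counting alone gives a coefficient of variation (CV) of about 3% at the counts of Mtor and 10.1% at those of Deptor in the WT libraries. Mtor had a CV of 4.47% in the mTOR-/- libraries and 7.69% in the WT libraries, where counting gives 3.29% and 3.28%. Deptor had 12.8% in both groups, where counting gives 8.14% and 10.1%. Rictor varied by 2.68% among the WT libraries, below the counting value of 3.09%, and by 21.2% among the mTOR-/- libraries. Without mTOR-/- replicate 3 the latter was 16.5%. Mlst8 had a CV of 21.5% among the mTOR-/- libraries, which was 3.23% without replicate 3, and 6.50% among the WT libraries. Akt1s1 varied most among the WT libraries, by 29.3%, and by 18.0% among the mTOR-/- libraries, where counting gives 4.38% and 4.53%.

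Ratios within a library do not depend on its depth, and since a gene's length cancels between groups they compare the balance of partners. The log2 ratio of Rptor to Rictor counts, which sets the mTORC1 scaffold against the mTORC2 scaffold, was -1.32, -0.94 and -1.83 across the mTOR-/- replicates, against -0.95, -0.85 and -1.03 across the WT replicates. The groups overlapped through mTOR-/- replicate 2. The difference of means was -0.42. Leaving out 1 library in turn moved it to between -0.18, without mTOR-/- replicate 3, and -0.63, without mTOR-/- replicate 2. The log2 ratio of Tsc1 to Tsc2 was 0.25 ± 0.10 with mTOR-/- (SD, n = 3), compared with 0.48 ± 0.12 with WT (SD, n = 3), with overlap. The log2 ratio of Mlst8 to Mtor was -0.47 ± 0.35 (SD, n = 3) and -0.59 ± 0.18 (SD, n = 3), again with overlap. The difference of means was 0.12, and it turned to -0.08 without mTOR-/- replicate 3. The log2 ratio of Rheb to Mtor was 0.30, 0.18 and 0.53 across the mTOR-/- replicates, against 0.63, 0.69 and 0.62 across the WT replicates. Here the groups did not overlap, with a difference of means of -0.31, which lay between -0.41 and -0.23 with 1 library left out in turn. Of these 4 ratios 1 thus separated the groups, where 28.4% of single tested genes do so, and no test was made of the ratios.

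Levels of different genes were set side by side as FPKM, which scale a count by gene length and library total. In the WT libraries the order from the highest was Mlst8 (12.2 ± 0.702 FPKM), Rheb (11.7 ± 0.703), Tsc2 (9.67 ± 0.702), Rictor (7.86 ± 0.259), Mtor (5.61 ± 0.453), Tsc1 (4.69 ± 0.696), Akt1s1 (4.51 ± 1.34), Mapkap1 (3.71 ± 0.791), Rptor (1.87 ± 0.164) and Deptor (0.605 ± 0.0813), each as mean and SD with n = 3. Mlst8 and Rheb overlapped in their libraries, as did each neighbouring pair from Mtor to Mapkap1, and the other neighbours did not overlap. In the mTOR-/- libraries the first 5 and the last 2 genes kept these places, and Tsc1 stood below Akt1s1 and Mapkap1. Mlst8 was at 15.1 ± 3.35 FPKM and Deptor at 1.05 ± 0.141 FPKM there (SD, n = 3). Without mTOR-/- replicate 3, Mlst8 was at 13.2 ± 0.310 FPKM (SD, n = 2). Neighbouring Rheb, Tsc2 and Rictor overlapped in the mTOR-/- libraries, as did Akt1s1, Mapkap1 and Tsc1. In both groups mTORC1's own scaffold Rptor was thus lower per length than mTORC2's scaffold Rictor.

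The order down to the eighth place rests on the gene length used. The deposited FPKM imply lengths from 3525 bases for Mlst8 to 20417 bases for Rptor, and 8616 bases for Rheb. Several of these exceed all merged exons of the gene, as for Rptor (13471 bases), Akt1s1 (8043 against 3072) and Mapkap1 (8157 against 4059). The same holds for Tsc1, Rheb, Mtor and Deptor, but not for Mlst8, Tsc2 and Rictor. How these lengths arose is not given in the sources used here, so the FPKM order between genes is uncertain. The transcript of Rheb with the longest coding part in the GENCODE M21 annotation has 1784 bases. With lengths of such transcripts, Rheb came first at 56.7 ± 3.40 CPM per kilobase (SD, n = 3) in the WT libraries, and Akt1s1 next at 20.0 ± 5.93 (SD, n = 3). Rptor stayed at 9 and Deptor at 10 in the order under every length tried.

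**Figure D4:**
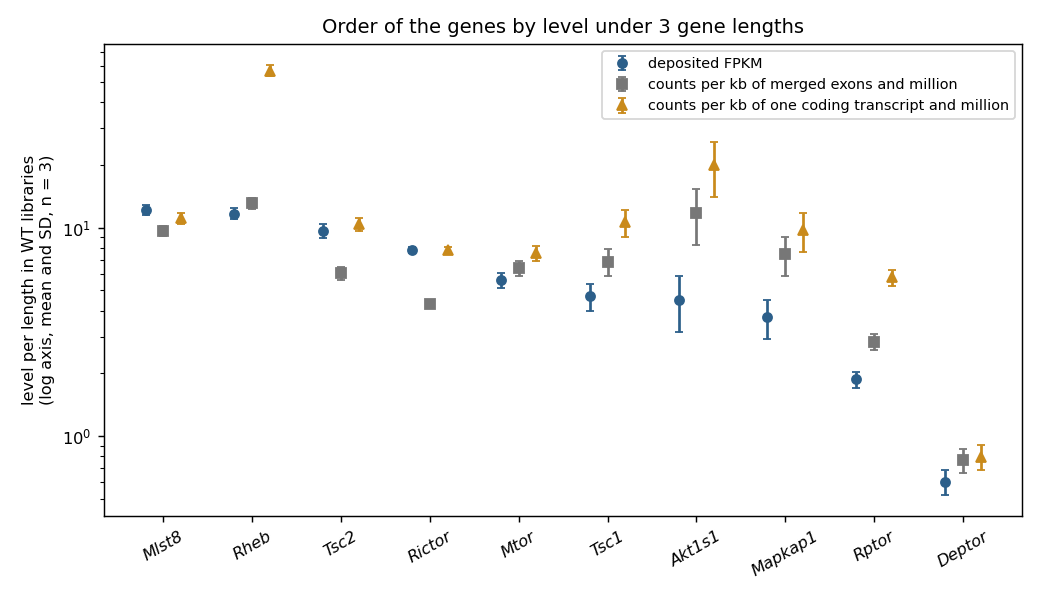
Level per length of each gene in the WT libraries (log axis, mean and SD, n = 3) from the deposited FPKM (blue), from counts per kilobase of merged exons (grey) and from counts per kilobase of the transcript with the longest coding part (orange). Rheb moves from 11.7 to 56.7 between the FPKM and the last of these, while Rptor and Deptor stay lowest throughout.

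The genes around this core were read from 3 lists: accessory subunits and assembly factors, inputs to TSC and mTORC1, and substrates of both complexes. Of 49 listed genes 46 were tested, and none had an adjusted p under 0.05 (edgeR's quasi-likelihood test). Ddit4l, Eif4ebp3 and Irs1 fell below the filter. At an unadjusted p under 0.05 there were 9 genes, 19.6%, against 21.2% of all tested genes. The groups did not overlap for 10 genes that were higher and 5 that were lower in the mTOR-/- libraries, where 28.4% of all tested genes did not overlap. Median log2 fold changes were 0.251, -0.025 and 0.086 for the 3 lists in this order. DESeq2's Wald test called 1 gene in each list, and edgeR's exact test called 0, 1 and 1.

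Among the accessory subunits, Prr5 and Prr5l, which join mTORC2, were low. Prr5 had 25 to 79 counts and Prr5l 20 to 68 counts per library, with log2 fold changes of 0.40 and -0.23 (standard errors 0.46 and 0.46, adjusted p = 0.656 and 0.819, edgeR's quasi-likelihood test). Tbc1d7, the remaining subunit of the TSC complex, had 71 to 127 counts and a log2 fold change of 0.27 (adjusted p = 0.60, edgeR). Rhebl1, the close relative of Rheb, was at 13.5, 8.18 and 19.0 CPM across mTOR-/- replicates 1 to 3, against 10.2, 9.84 and 7.12 CPM across the WT replicates. Its groups overlapped through mTOR-/- replicate 2, and the log2 fold change was 0.58 (SE 0.30, edgeR quasi-likelihood, adjusted p = 0.304), or 0.25 without mTOR-/- replicate 3.

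Among the inputs, Akt1, a kinase that inhibits TSC2 and PRAS40, was at 271, 253 and 288 CPM across mTOR-/- replicates 1 to 3, against 235, 244 and 251 CPM across the WT replicates. These ranges did not overlap, but the log2 fold change was only 0.15 (adjusted p = 0.349, edgeR's quasi-likelihood test). Ddit4, whose product REDD1 restrains mTORC1 under stress, was at 57.0 to 81.7 CPM and 59.7 to 82.0 CPM in the groups, with a log2 fold change of -0.10 (adjusted p = 0.784, edgeR).

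Among the substrates, Sgk1, a kinase activated through mTORC2, came closest to the threshold. It was at 267, 208 and 294 CPM across mTOR-/- replicates 1 to 3, against 177, 193 and 187 CPM across the WT replicates, so that each mTOR-/- library was above each WT library. The fitted log2 fold change was 0.47 (SE 0.13, edgeR quasi-likelihood, adjusted p = 0.0769). The adjusted p was 0.0188 with DESeq2's Wald test, 0.0293 with edgeR's exact test and 0.0193 in edgeR's quasi-likelihood fit without mTOR-/- replicate 2. No other fit with 1 library left out called Sgk1. In the fit without mTOR-/- replicate 3 its log2 fold change was 0.35 (adjusted p = 0.14, edgeR quasi-likelihood). Rps6kb1, an S6 kinase gene, was at 110, 102 and 116 CPM against 93.0, 92.1 and 91.9 CPM, a log2 fold change of 0.24 (adjusted p = 0.18, edgeR). Eif4ebp1, which encodes a translation repressor that mTORC1 inactivates, was at 95.1, 101 and 89.6 CPM against 115, 105 and 111 CPM, a log2 fold change of -0.21 (adjusted p = 0.236, edgeR). Both of these separated the groups, in opposite directions. The nearest libraries were at 102 and 93.0 CPM for Rps6kb1 and at 101 and 105 CPM for Eif4ebp1. Ulk1, the autophagy kinase that mTORC1 restrains, overlapped between the groups at 55.0 to 64.2 and 59.8 to 66.7 CPM, with a log2 fold change of -0.09 (adjusted p = 0.674, edgeR).

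**Figure D5:**
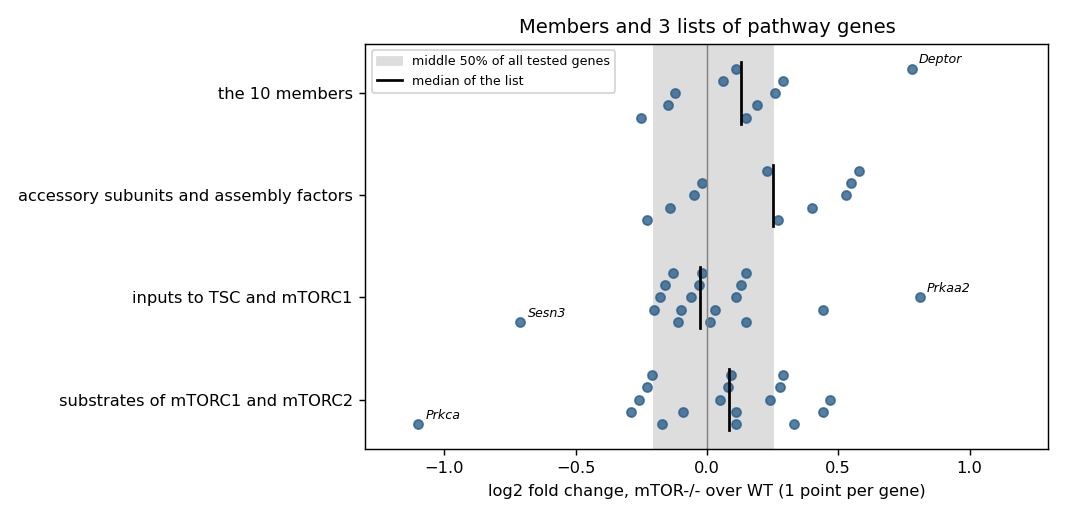
Log2 fold change of mTOR-/- over WT (horizontal axis) for the 10 genes of the complexes and the switch and for the 46 tested genes of 3 pathway lists, with 1 point per gene. Black bars are list medians and the grey band holds the middle 50% of all tested genes. Deptor and Prkaa2 lie farthest to the right and Prkca and Sesn3 farthest to the left.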

How the data were processed

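The authors deposited read counts per gene, without normalization, and FPKM for each library. The paper's methods name alignment to mm10 with Bowtie2 and counting with HTSeq, while the submitters' processing notes name HISAT2 2.0.4 and StringTie 1.3.0. The annotation release and strand setting are not given in the sources used here. The deposited comparisons of the groups (fold changes, p and q values) were not used, nor were 24 further columns of counts and FPKM in the files that hold those comparisons.

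The counts went into R 4.3.3, edgeR 4.0.16 and DESeq2 1.42.0: filterByExpr (minimum count 10, minimum total 15), TMM factors, and the quasi-likelihood F test of mTOR-/- against WT without a block. Groups and replicates come from the sample titles, and p-values measure the spread between libraries. Intervals are 95% intervals from the same fit. Like the p-values, they rest on the spread between libraries. Counting CVs treat reads as independent, which PCR copies are not. The code was tested on simulated data. Gene structures are from GENCODE M21 on GRCm38, which held 98.6% of the gene identifiers.

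The 10 genes, the pathway and marker lists and the tests were chosen with earlier results of these data known. The genes named are these 10, any pathway gene called and 10 fixed pathway genes, Lyz2, markers, and genes whose exons overlap those of the 10. Ikbkb, Pih1d1, Prkaa2, Prkca and Sesn3 were chosen after their values were seen. Alternatives were RLE and upper-quartile factors, DESeq2, edgeR's exact test, another filter or none, each library left out, the replicate block, and other gene lengths, of which the transcript length was chosen after seeing the data.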

Additional observations from a re-analysis of the deposited data

How the results depend on the processing

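No setting turned the direction of Mtor, Rptor, Rictor, Mlst8, Deptor, Mapkap1, Tsc1, Tsc2 or Rheb in the 13 alternative fits, and Akt1s1 changed sign in 2 fits with 1 library removed, with a range of -0.16 to 0.23. Mtor ranged from 0.09 to 0.19 (log2 fold change), with adjusted p from 0.426 to 0.748. The number of the 10 genes called rose from 0 to 1 with DESeq2's Wald test and to 1 with edgeR's exact test, and it was 0 with each library left out. Accessory subunits and assembly factors went from 0 to 1 call with DESeq2. Inputs went from 0 to 1 with DESeq2 and to 1 with the exact test. Substrates went from 0 to 1 with either, and they ranged from 0 to 1 with each library left out. The cause was not tested. Over all genes, calls at an adjusted p under 0.05 numbered 507, against 1144 with DESeq2, 1009 with the exact test, 279 with the replicate block and 173 to 513 with each library left out. Same-numbered libraries did not deviate together across genes (correlations of -0.0764, -0.0252 and -0.0608). This gave no sign that the numbers pair the libraries, but it cannot exclude a shared culture or preparation. With the replicate block the adjusted p of Deptor was 0.181 and 0 of the 10 genes were called. Deptor had the lowest counts of the 10 genes, and counting alone gives it a CV of 8.14% to 10.1%, where the libraries gave 12.8% in both groups.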

Other observations

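Some genes of the pathway lists stood out only after their values were seen. Ikbkb, which encodes an IKK kinase able to inhibit TSC1, was at 172, 162 and 221 CPM in the mTOR-/- libraries and 130, 148 and 132 CPM in the WT libraries, with a log2 fold change of 0.44 (adjusted p = 0.0927, edgeR's quasi-likelihood test). Its adjusted p was 0.0363 with DESeq2 and 0.0491 with edgeR's exact test. Pih1d1, a subunit of a chaperone complex that helps assemble mTOR-family kinases, was at 26.2, 29.6 and 33.7 CPM against 18.3, 23.5 and 19.0 CPM, with a log2 fold change of 0.55 (adjusted p = 0.0945, edgeR). DESeq2 gave Pih1d1 an adjusted p of 0.0455. Prkaa2, the gene of a catalytic AMPK subunit, was at 7.42, 10.7 and 15.1 CPM against 6.61, 5.67 and 6.69 CPM, with a log2 fold change of 0.81 (adjusted p = 0.144, edgeR). Leaving out mTOR-/- replicate 3 gave 0.28 for Ikbkb, 0.45 for Pih1d1 and 0.52 for Prkaa2 (adjusted p = 0.149, 0.184 and 0.322, edgeR's quasi-likelihood test). Prkca, which encodes a protein kinase C that mTORC2 phosphorylates, had 44 and 48 counts in mTOR-/- replicates 1 and 2 and 0 counts in mTOR-/- replicate 3, against 80, 64 and 78 counts in the WT libraries.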
